A study of Mus musculus with 95 samples.

Results

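RNA-seq of E14 mouse embryonic stem cells that lack Pcgf1, Pcgf2 and Pcgf4 was compared with RNA-seq of wild-type E14 cells. The comparison took the 4 libraries that carry these 2 genotypes in their labels, of 95 samples in the series, and every gene of the authors' count table. Of 23377 genes in that table, 12704 passed a filter on low counts and were tested. Each genotype had 2 libraries, and the series held 14 RNA-seq libraries and 81 ChIP-seq samples in all.

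The knockout is written Pcgf1/2/4-/-, and Pcgf4 appears in the table under its gene name Bmi1. Per the labels' protocols, the line was made by Cas9 editing of an already edited clone, and clones were screened by PCR, Western blot and sequencing. Both knockout libraries bear 1 line name, so they describe 1 clonal line. Wild-type and knockout cells shared their culture conditions: gelatin-coated dishes and serum medium with the cytokine LIF, a GSK3β inhibitor and a MEK1/2 inhibitor, additives that hold embryonic stem cells in a naive state. Nothing in the labels says that the libraries of a genotype came from separate cultures, so all p-values measure only the spread between these libraries.

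Polycomb repressive complex 1 (PRC1) is built around RING1A or RING1B, the ligases that place ubiquitin on histone H2A, and 1 PCGF protein. PCGF2 and PCGF4 (BMI1) sit in canonical PRC1, whose CBX subunits bind the H3K27me3 mark written by Polycomb repressive complex 2 (PRC2), of which SUZ12 is a core subunit. PCGF1 sits in a variant complex with the DNA-binding protein KDM2B, which reads unmethylated CG-rich DNA, and with BCOR. In embryonic stem cells these complexes occupy the promoters of silent developmental regulators, the Hox genes among them.

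The 250 bases before the start of 4 strongly changed genes are shown because they contrast in marks, in CG content and in direction of change. None of the 4 stretches holds an annotated exon. All 4 lie on the plus strand of build NCBIM37 (mm9), and capitals mark each CG. The sequences belong to Lbx2 (chr6:83036109-83036358) and Plk5 (chr10:79818954-79819203), which carried wild-type peaks of RING1B, SUZ12 and H3K27me3 and were raised, to Adh1 (chr3:137923705-137923954), which carried none of the 3 and was raised, and to Gm13119 (chr4:143947595-143947844), which carried none and was lowered.
Lbx2: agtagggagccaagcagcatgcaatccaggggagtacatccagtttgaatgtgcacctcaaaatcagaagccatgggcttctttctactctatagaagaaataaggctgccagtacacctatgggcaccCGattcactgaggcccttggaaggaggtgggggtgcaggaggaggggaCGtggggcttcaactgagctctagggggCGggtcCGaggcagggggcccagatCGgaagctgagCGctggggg
Plk5: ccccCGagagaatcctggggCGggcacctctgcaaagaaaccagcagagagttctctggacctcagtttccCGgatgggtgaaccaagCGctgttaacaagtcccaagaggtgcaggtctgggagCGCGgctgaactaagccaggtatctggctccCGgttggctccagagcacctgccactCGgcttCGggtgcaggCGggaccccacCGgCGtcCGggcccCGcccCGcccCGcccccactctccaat
Adh1: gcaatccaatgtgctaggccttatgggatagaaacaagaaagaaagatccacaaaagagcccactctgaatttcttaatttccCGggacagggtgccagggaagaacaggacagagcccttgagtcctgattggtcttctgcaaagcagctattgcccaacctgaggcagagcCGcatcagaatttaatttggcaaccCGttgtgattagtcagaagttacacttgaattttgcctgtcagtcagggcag
Gm13119: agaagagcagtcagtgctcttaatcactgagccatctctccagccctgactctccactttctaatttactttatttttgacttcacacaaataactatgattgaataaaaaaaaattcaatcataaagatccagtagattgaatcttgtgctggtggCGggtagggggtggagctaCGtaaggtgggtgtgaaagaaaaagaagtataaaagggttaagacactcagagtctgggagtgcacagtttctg
The Lbx2 sequence holds 6 CG pairs, and 82.6% of 12379 tested genes with a matched start hold at least as many in the same window. Plk5 holds 16, reached by 45.7%. Adh1 and Gm13119 hold 3 and 2 CG, reached by 93.0% and 96.2%. A CG reads the same on both strands, and the pairs counted do not overlap. The median was 14 over the tested genes, 16 over 883 genes with all 3 marks, and 8 over 429 genes lowered more than 2-fold.

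Wild-type libraries held 6827571 and 6967931 counts and knockout libraries 2147968 and 2471117. A count of 3, the floor used below for a gene without reads, was worth 0.394 to 0.399 counts per 1000000 (CPM) in a wild-type library and 1.33 to 1.55 CPM in a knockout library. CPM here are counts scaled to library sizes adjusted by TMM factors. The wild-type libraries differed from each other by less than sampling noise: the chi-square per degree of freedom was 0.954 over 14250 genes and 0.682 over 3287 genes with more than 2000 counts. Over 4537 genes with 10 to 200 counts it was 1.06, slightly above sampling noise (chi-square test, p = 0.00266). The knockout libraries differed by more than counting error, with 1.21 over 12020 genes. The wild-type pair is therefore described as 1 sample, with values library by library and no SD. The main fit still took the pair as 2 replicates, and its SEs, adjusted p-values and calls use both. The number of changed genes is also given with the pair summed to 1 library.

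Fold changes also moved with expression level and gene length. The median log2 fold change was -0.57 in the lowest of 10 equal bins of genes by mean level and 0.58 in the highest. By exonic length it was 0.22 in the shortest bin and -0.34 in the longest. Between the libraries of a genotype, the medians of the bins by level lay between -0.034 and 0.032 in wild-type and between -0.055 and 0.056 in the knockout. Values are therefore given again with offsets that follow reads per exonic base, chosen after this trend was seen, which brought the bins of level to between -0.15 and 0.13.

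**Figure D1:**
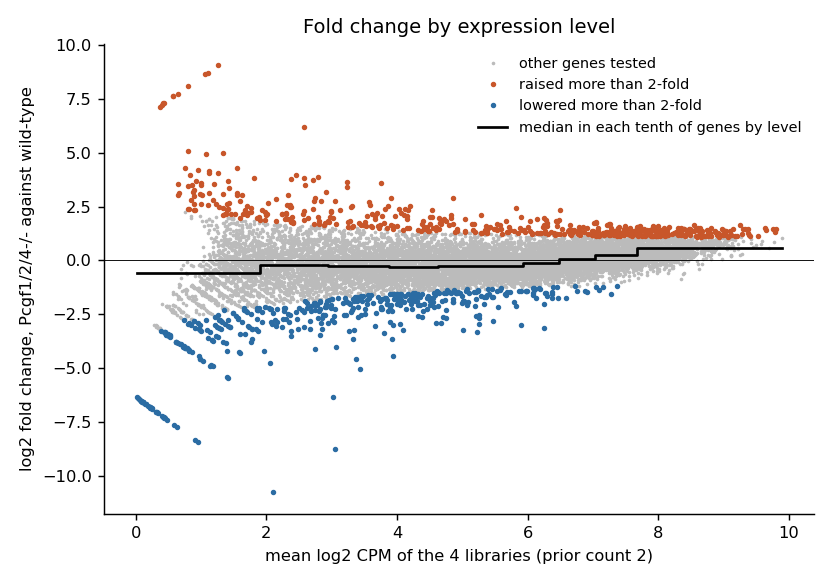
Each point is 1 of the 12704 tested genes, with its mean log2 CPM over the 4 libraries on the x axis and its log2 fold change, Pcgf1/2/4-/- against wild-type, on the y axis. Orange and blue points passed the test of a change of more than 2-fold, and the black line gives the median of each of 10 bins of genes by level, from -0.57 to 0.58. The separate bands at the far left are genes without a count in 1 genotype, whose fitted fold change depends on the prior count.

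The targeted genes were read first. Pcgf1 stood at 61.5 and 57.0 CPM in wild-type and at 0.52 and 0.88 CPM in the knockout. The knockout held 3 Pcgf1 counts in all, or 1.21% of the wild-type level, with an exact 95% counting interval from 0.249% to 3.54%. Pcgf2 had 40.0 and 45.7 CPM in wild-type and 55.4 and 55.7 CPM in the knockout, a log2 fold change of 0.37 ± 0.11 (SE; adjusted p = 0.00226) that missed the threshold without wild-type replicate 1 (0.27). Bmi1 had 15.0 and 13.3 CPM in wild-type and 13.5 and 19.5 CPM in the knockout, and the groups overlapped (adjusted p = 0.328). Of the 3 targeted transcripts, that of Pcgf1 was lost. A Cas9 edit can end a protein and leave its mRNA, so the transcript levels of Pcgf2 and Bmi1 do not check those edits.

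Across all genes, 8278 of 12704 changed (65.2%; edgeR quasi-likelihood test, Benjamini-Hochberg adjusted p below 0.05), 3998 of them raised (31.5%) and 4280 lowered (33.7%). That count rests on 4 libraries with a coefficient of variation of 1.28% between replicates. With the wild-type pair summed to 1 library 7554 genes changed, 48.2% of them raised. In the fit of all 14 RNA-seq libraries, where the coefficient was 12.3%, 5717 of 15464 genes changed (37.0%), 2222 raised (14.4%) and 3495 lowered (22.6%). The test of a change of more than 2-fold called 975 genes (7.67%), 527 raised (4.15%) and 448 lowered (3.53%). Both knockout libraries lay above both wild-type libraries for 4809 genes (37.9%) and below them for 5606 (44.1%). Unless another test is named, shares raised or lowered refer to an adjusted p below 0.05 for gene lists and to the 2-fold test for promoter classes.

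The 12 genes raised most include genes for an alcohol dehydrogenase, homeobox factors, a junction protein, a collagen chain and signalling proteins. Of the 12, 8 carried RING1B, SUZ12 and H3K27me3 peaks at the promoter in wild-type cells, against 7.13% of tested genes with a matched start. Among these 8, Lbx2, Arhgap9, Hoxa9, Col4a2 and Hsd17b1 lay under the filter's cutoff of 2.15 CPM of unadjusted library size in both wild-type libraries. Adh1, Cblc and Mapk8ip1, which lacked the marks, did so as well. All of these passed the filter through the knockout alone and had to be higher there, so the count of 8 is only descriptive. Adh1, an enzyme that oxidises retinol and other alcohols, had 0.93 and 0.13 CPM in wild-type and 39.9 and 41.6 CPM in the knockout, a log2 fold change of 6.20 ± 0.31 (SE; adjusted p = 1.15e-56). Lbx2, a homeobox gene, had 0.80 and 1.58 CPM in wild-type and 19.2 and 18.6 CPM in the knockout, a log2 fold change of 3.96 ± 0.33. Lbx2 starts 5.52 kb from the end of Pcgf1 on chromosome 6, and the part of the edited neighbour in its rise was not tested. Cblc, a ubiquitin ligase of the CBL family, had 1.60 and 1.58 CPM in wild-type and 22.3 and 24.8 CPM in the knockout. Arhgap9, a GTPase-activating protein, had 1.33 and 1.45 CPM in wild-type and 17.6 and 21.7 CPM in the knockout. In each of these genes the knockout libraries lay close together and far above both wild-type libraries.

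Col4a2, a chain of basement membrane collagen IV, had 1.60 and 1.58 CPM in wild-type and 22.8 and 19.5 CPM in the knockout (log2 fold change 3.71 ± 0.30). Plk5, a member of the polo-like kinase family, had 2.66 and 2.23 CPM in wild-type and 30.0 and 31.0 CPM in the knockout (3.63 ± 0.25). Hsd17b1, which makes oestradiol from oestrone, had 1.60 and 1.58 CPM in wild-type and 16.1 and 19.9 CPM in the knockout. None of these 3 was above 3 CPM in wild-type cells. Ldoc1, an X-linked gene derived from a retrotransposon, had 2.39 and 2.89 CPM in wild-type and 29.0 and 28.3 CPM in the knockout. Cldn7, a tight junction claudin, had 2.92 and 1.71 CPM in wild-type and 21.2 and 20.4 CPM in the knockout. Mapk8ip1, a scaffold of JNK signalling, had 1.33 and 1.84 CPM in wild-type and 9.32 and 16.4 CPM in the knockout, the widest spread of the 12 between knockout libraries. Hoxa9 and Hoxa10 complete the 12 and are described with the Hox genes.

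The 12 genes lowered most include the Y-linked genes Uty, Eif2s3y and Uba1y. Uty, a Y-linked demethylase relative, had 46.8 and 42.2 CPM in wild-type and no count in either knockout library, at least 62.2-fold lower against a floor of 3 counts over the knockout libraries. Eif2s3y, the Y-linked subunit of a translation initiation factor, had 114 CPM in both wild-type libraries and 1 count in the knockout, or 0.209% of the wild-type level with an interval from 0.00529% to 1.17%. The 20 genes of the table on chromosome Y together had 2403 and 2354 counts in wild-type and 34 and 41 in the knockout. The loss was not particular to the triple knockout: Uty had no count in either library of Pcgf1-/- or of Pcgf2/4-/-, and Eif2s3y had 0.33 and 0.46 CPM in Pcgf1-/- and 1.26 and 0 CPM in Pcgf2/4-/-. The part of Y-linked loss in the other changes was not tested.

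P2rx2, an ATP-gated channel, had 46.5 and 46.3 CPM in wild-type and 2.59 and 1.33 CPM in the knockout (log2 fold change -4.58 ± 0.28). Fam19a4, a secreted chemokine-like protein, had 67.6 and 66.5 CPM in wild-type and 4.14 and 2.21 CPM in the knockout (-4.42 ± 0.22). T, or Brachyury, the T-box factor of early mesoderm, had 33.7 and 28.0 CPM in wild-type and 1.55 and 2.21 CPM in the knockout (-4.00 ± 0.32; adjusted p = 5.20e-28). T carried all 3 marks in wild-type cells and yet was lowered. Obox6, an oocyte-specific homeobox gene, had 23.1 and 19.7 CPM in wild-type and 1.55 and 2.21 CPM in the knockout. Gm13119 had 21.3 and 18.4 CPM in wild-type and 3 counts in the knockout, or 3.61% of the wild-type level with an interval from 0.741% to 10.7%. Obox6 and Gm13119 have close relatives in the genome, and how reads shared between copies were counted is not known here. Another 4, Uba1y, Gm12794, Tmem92 and Zscan4a, had log2 fold changes between -5.04 and -3.63.

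**Figure D2:**
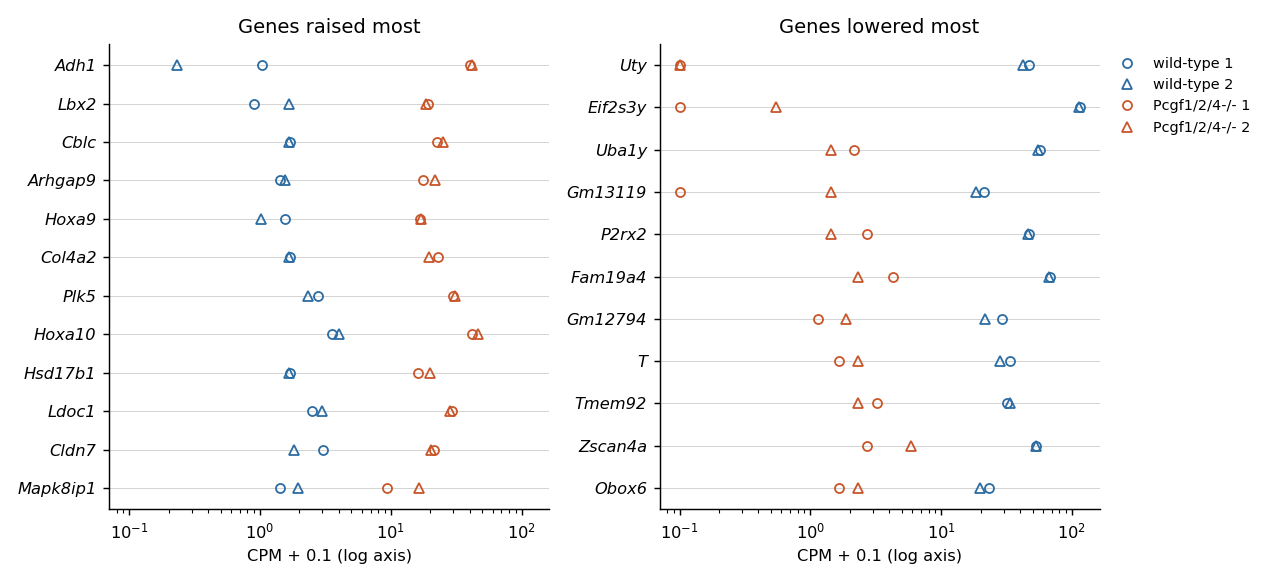
CPM of the 12 genes raised most (left) and of 11 of the 12 lowered most (right) among those of at least 2 in mean log2 CPM, on a log axis after adding 0.1 CPM. Blue symbols are the wild-type and orange symbols the Pcgf1/2/4-/- libraries, circles library 1 and triangles library 2. The genes were chosen so that both knockout libraries lie beyond both wild-type libraries, and Uty and Adh1 show the widest gaps of their panels.

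Promoters were then sorted by the authors' wild-type peak lists, and a gene counted as marked if any of its annotated starts had a peak at most 2.5 kb away. Genes with RING1B, SUZ12 and H3K27me3 together numbered 2312, of which 883 were tested. Of these 93 rose by more than 2-fold (10.5%) and 38 fell (4.30%), beside 4.15% and 3.53% over all tested genes. Among 10287 tested genes with none of the 3 marks, 367 rose (3.57%) and 325 fell (3.16%). Genes with RING1B but not both other marks gave 34 raised (4.66%) and 41 lowered (5.62%) of 730. Genes with SUZ12 or H3K27me3 and no RING1B gave 19 raised (3.97%) and 25 lowered (5.22%) of 479. The largest share of raised genes thus lay with the triply marked promoters. A gene passed the filter by reaching 2.15 CPM of unadjusted library size in at least 2 libraries, so a gene that reached it in 1 genotype alone had to differ. Of the triply marked genes 72 passed through the knockout alone and 85 through wild-type alone, against 67 and 386 of the unmarked ones. Leaving out such genes, a choice made after the data were seen, left 46 raised (6.34%) and 18 lowered (2.48%) of 726 triply marked genes, against 340 (3.46%) and 202 (2.05%) of 9834 unmarked and 3.65% and 2.31% over all genes kept.

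At an adjusted p below 0.05 without the 2-fold bound, the triply marked genes had 286 raised (32.4%) and 213 lowered (24.1%), against 31.5% and 33.7% over all genes. Their median log2 fold change was 0.086, against -0.06 over all tested genes and -0.055 over genes with none of the marks. With offsets by reads per exonic base the medians were 0.35 and -0.046. The triply marked median was -0.00971 when only genes with a mean count of at least 20 were kept, and -0.012 without knockout replicate 2, so its sign rests on weakly expressed genes and on that library. These classes are described, not tested against each other.

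Triply marked genes were expressed at a low level, with a median of 5.89 CPM in wild-type against 57.0 CPM for genes with none of the marks, so they were also read within 5 equal bins of the wild-type level. In the lowest bin, 78 of 535 triply marked genes rose by more than 2-fold (14.6%) and 15 fell (2.80%), while 55 of 1405 unmarked genes rose (3.91%) and 98 fell (6.98%). In the second bin 11 of 218 rose (5.05%) and 14 fell (6.42%), beside 2.18% and 4.10% of unmarked genes. In the third 1 of 72 rose (1.39%) and 7 fell (9.72%), beside 2.09% and 3.74% of unmarked genes. There the triply marked genes rose less often and fell more often than unmarked ones. All 72 triply marked genes that passed through the knockout alone lay in the lowest bin, and without genes of 1 genotype alone 31 of 383 rose there (8.09%), against 28 of 980 unmarked genes (2.86%). In that bin 80 triply marked and 358 unmarked genes had passed through wild-type alone. Without genes of 1 genotype alone, 0 of 383 triply marked and 2 of 980 unmarked genes fell (0.204%). The difference in shares lowered in that bin thus rested on genes that had to be lower. A split by the mean of all 4 libraries, which does not draw on wild-type alone, gave 62 raised (12.5%) and 21 lowered (4.23%) of 497 in the lowest bin, and for unmarked genes 37 (2.57%) and 148 (10.3%) of 1441. Without genes of 1 genotype alone that bin gave 15 raised of 341 triply marked genes (4.40%), fewer than the 21 of 246 (8.54%) in the second bin, and 10 of 991 unmarked genes (1.01%). In the same set 2 of the 341 triply marked genes fell (0.587%) and 28 of the 991 unmarked ones (2.83%). Which bin held the largest share raised therefore depended on the genes of 1 genotype alone and on the split. The triply marked share raised exceeded the unmarked one in the lowest bin under both splits.

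**Figure D3:**
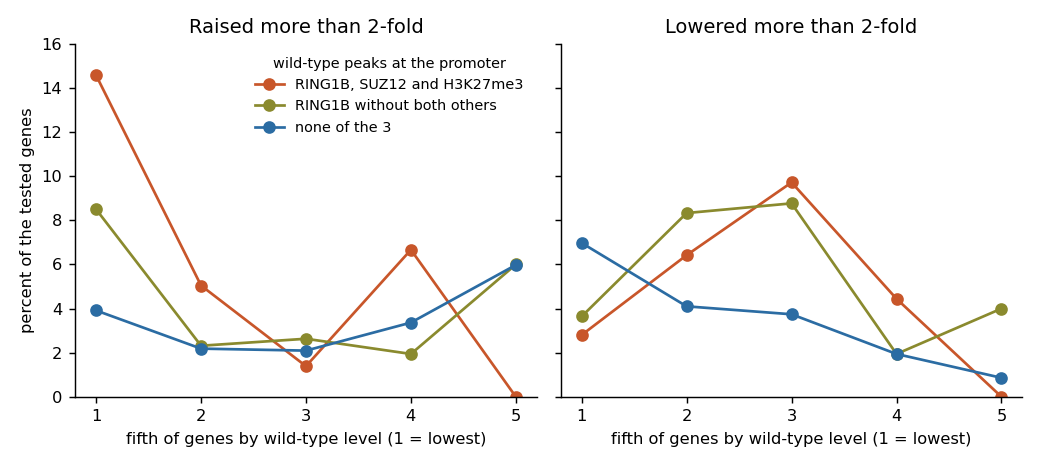
Percent of tested genes raised (left) or lowered (right) by more than 2-fold within 5 bins of wild-type expression, for promoters with wild-type peaks of RING1B, SUZ12 and H3K27me3 (orange), RING1B without both others (olive) and none of the 3 (blue). The orange point of the lowest bin stands at 14.6% raised, against 3.91% for unmarked promoters, and includes 72 genes that passed the filter through the knockout alone. The lowest bin also includes 80 triply marked and 358 unmarked genes that passed through wild-type alone and had to be lower in the knockout. The 3 orange points at the highest expression rest on 72, 45 and 13 genes.

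Most triply marked genes were too low to test. Of 1429 that failed the filter, 616 had a higher mean CPM in the knockout, 450 a lower one, and 363 had no count in any library. Their summed level was 502 and 505 CPM in the wild-type libraries and 656 and 693 CPM in the knockout libraries. Of 7243 unmarked genes that failed the filter, 1164 were higher and 1726 lower, and their sum was 1491 and 1434 CPM in wild-type and 1267 and 1321 CPM in the knockout. The shallower knockout libraries detected 1475 and 1520 triply marked genes with at least 1 count, and the wild-type libraries 1646 and 1603.

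Of the 8 triply marked genes among the 12 raised most, all 8 also carried a wild-type PCGF2 peak, and Arhgap9, Plk5 and Hoxa10 carried a PCGF1 peak as well. A PCGF2 peak was common in this class, since all but 229 of its 883 tested genes carried one. Of 177 tested genes with all 3 marks and both PCGF1 and PCGF2 peaks, 24 rose by more than 2-fold (13.6%) and 5 fell (2.82%). Where PCGF2 was present without PCGF1, 49 of 477 rose (10.3%) and 26 fell (5.45%). Without PCGF2, 20 of 229 rose (8.73%) and 7 fell (3.06%). The share raised was highest where both proteins had been called. Without genes that passed in 1 genotype alone the shares raised were 8.16%, 5.94% and 5.73% in the same order.

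Peaks called in the knockout cells gave a further split. RING1B peaks numbered 5454 in wild-type and 2051 and 1814 in the 2 Pcgf1/2/4-/- samples. Of triply marked genes with a RING1B peak in neither knockout sample, 70 of 607 rose (11.5%) and 23 fell (3.79%). Of those with a RING1B peak in both, 12 of 169 rose (7.10%) and 9 fell (5.33%). Where the SUZ12 peak was not called in the knockout, 30 of 187 rose (16.0%) and 2 fell (1.07%), and where it was called 63 of 696 rose (9.05%) and 36 fell (5.17%). Where the H3K27me3 peak was not called, 73 of 623 rose (11.7%) and 20 fell (3.21%), and where it was called 20 of 260 rose (7.69%) and 18 fell (6.92%). In all 3 splits the genes that had lost the peak held the larger share raised and the smaller share lowered. Without genes that passed in 1 genotype alone, the shares raised were 6.99% and 4.86% for RING1B lost and kept, 11.8% and 4.78% for SUZ12, and 7.09% and 4.41% for H3K27me3. Each list comes from 1 ChIP sample, and a peak that was not called can also be a weak one.

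Read from the other side, 93 of 513 genes raised by more than 2-fold with a matched start carried all 3 marks (18.1%), against 7.13% of all tested genes, and 367 carried none (71.5%). Of 429 lowered genes 38 carried all 3 marks (8.86%) and 325 none (75.8%). Without genes that passed the filter in 1 genotype alone, 11926 genes remained, matched or not, 726 of them with all 3 marks. Of these 435 were raised by more than 2-fold, 46 with all 3 marks and 340 with none. Lowered were 275, 18 with all 3 marks and 202 with none. H3K4me3, the mark of active and poised starts, lay at 94.7% of raised, 79.0% of lowered and 94.5% of all tested genes. The median ratio of observed to expected CG in the 1 kb around the start was 0.74 in raised, 0.48 in lowered and 0.72 in all tested genes.

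Triply marked genes were also lowered. Ablim1, an actin-binding LIM protein, had 100.3 and 92.9 CPM in wild-type and 11.9 and 8.85 CPM in the knockout (log2 fold change -3.23 ± 0.15). Dpp6, which associates with potassium channels, had 17.0 and 13.9 CPM in wild-type and 2.59 and 0.88 CPM in the knockout. Prom1, the membrane glycoprotein CD133, had 16.9 and 18 CPM in wild-type and 1.55 and 2.21 CPM in the knockout. Among triply marked genes with a mean log2 CPM of at least 2, these and T were lowered most, and all 4 were expressed in wild-type cells despite the marks.

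Hox genes, which set position along the body axis and are a textbook target of Polycomb repression, rose wherever they passed the test. Of 39 Hox genes 15 were tested, 11 rose and none fell, against 31.5% raised over all genes, and 7 rose by more than 2-fold, against 4.15%. Of the 15, 6 reached the filter's cutoff in the knockout libraries alone and had to be higher there, and of the other 9 genes 5 rose. Of these 9, 2 rose by more than 2-fold, against 3.65% of all genes that reached the cutoff in both genotypes. Their median log2 fold change was 1.91, or 1.36 over those 9, and ranged from 1.36 to 2.41 over the settings tried. Of 24 not tested, 19 had a higher mean CPM in the knockout, 1 a lower one, and 4 had no count anywhere. The summed Hox level was 79.3 and 74.0 CPM in wild-type and 213 and 224 CPM in the knockout.

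Most of the summed rise came from the posterior paralogue groups. Of groups 9 to 13, 9 of 16 genes were tested and 8 rose, 7 of them by more than 2-fold, and the sum went from 28.3 and 29.0 CPM to 145 and 139 CPM. Only 2 of those 7 genes reached the filter's cutoff in both genotypes, and the rest had to be higher in the knockout. Of groups 1 to 8, 6 of 23 were tested and 3 rose, with sums of 51.0 and 44.9 CPM in wild-type and 67.9 and 85.4 CPM in the knockout. Hoxa10 had 3.46 and 3.94 CPM in wild-type and 42.0 and 46.4 CPM in the knockout (log2 fold change 3.58 ± 0.21; adjusted p = 2.18e-45). Hoxa9 had 1.46 and 0.92 CPM in wild-type and 16.6 and 16.8 CPM in the knockout, and shares exonic bases with another gene on its strand, so its counts are uncertain. Hoxd9 had 0.40 and 0.13 CPM in wild-type and 9.84 and 8.40 CPM in the knockout. Hoxd13 had no count in wild-type and 5.70 and 5.31 CPM in the knockout, at least 27.8-fold higher against a floor of 3 counts over the wild-type libraries. These 4 genes stood under 4 CPM in both wild-type libraries and above 5 CPM in both knockout libraries.

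The other Hox genes were chosen for mention after their values were seen. Hoxb13 rose from 8.24 and 7.75 CPM to 34.2 and 35.8 CPM without any of the 3 marks in wild-type. Hoxa7 had 10.8 and 9.86 CPM in wild-type and 18.1 and 33.6 CPM in the knockout, where the libraries stood far apart. Hoxb7, Hoxb9, Hoxc5, Hoxc10 and Hoxd10 rose with log2 fold changes from 1.44 to 3.56, though Hoxb7 no longer passed without knockout replicate 2 (1.6 against 1.91). Hoxa2, Hoxc4 and Hoxc13 did not pass the test, with log2 fold changes from -0.53 to -0.05, but Hoxc13 stood at -1.89 and passed without knockout replicate 1 and at 0.29 without knockout replicate 2.

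**Figure D4:**
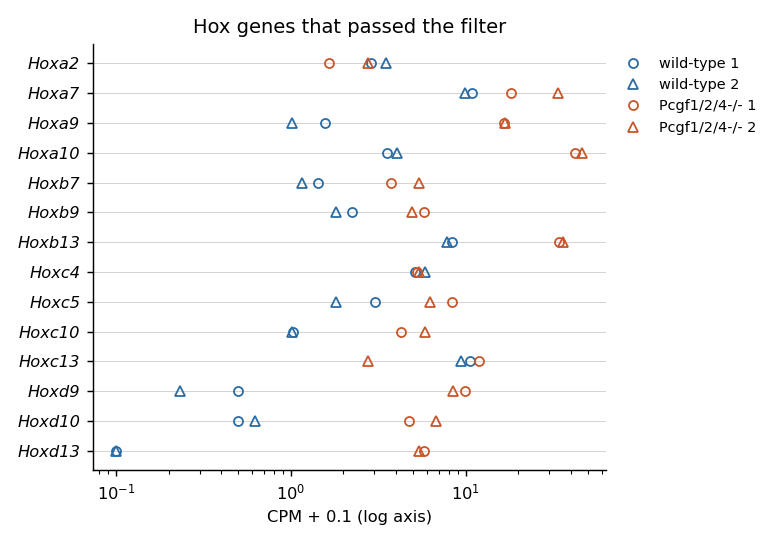
CPM of 14 Hox genes that passed the filter, on a log axis after adding 0.1 CPM, with wild-type libraries in blue and Pcgf1/2/4-/- libraries in orange. Hoxa9, Hoxa10, Hoxb13, Hoxd9, Hoxd10 and Hoxd13 show the widest gaps between genotypes, while the genotypes overlap in Hoxc4 and Hoxc13.

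Transcription factors of other lineages moved in both directions. Of 105 neural factors in the list 21 were tested, 10 rose (47.6%) and 7 fell (33.3%), against 31.5% and 33.7% over all genes. By more than 2-fold 7 rose (33.3%) and 1 fell (4.76%), against 4.15% and 3.53% over all genes. Of the 21, 5 passed the filter through the knockout alone and 2 through wild-type alone, and among the other 14 genes 5 rose and 5 fell, 3 and 0 of them by more than 2-fold. Their median of 0.48 ranged from -0.23 without knockout replicate 1 to 1.30 without a filter, and was -0.17 without knockout replicate 2 and -0.08 over those 14. Of 84 neural factors not tested, 38 had a higher mean in the knockout, 19 a lower one and 27 had no count. Lhx9, a LIM homeobox gene, had no count in wild-type and 3.11 and 4.87 CPM in the knockout, at least 20.1-fold higher. Pou3f2, or BRN2, a factor of neural progenitors, had 0.27 and 0.13 CPM in wild-type and 4.14 and 4.42 CPM in the knockout, so wild-type stood at 4.62% of the knockout level with a counting interval from 0.871% to 15.8%. Otx1 had 0.80 and 1.05 CPM in wild-type and 4.14 and 11.1 CPM in the knockout. Lmx1a, a factor of dopaminergic precursors, had 4.39 and 4.60 CPM in wild-type and 1.04 and 0 CPM in the knockout, or 10.6% of wild-type with an interval from 1.26% to 39.9%. The 3 raised genes named here stayed at or under 11.1 CPM.

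Of 76 mesoderm and endoderm factors 27 were tested, 15 rose (55.6%) and 6 fell (22.2%), beside the 31.5% and 33.7% of all genes. By more than 2-fold 9 rose (33.3%) and 2 fell (7.41%), beside 4.15% and 3.53% of all genes. Of the 27, 5 passed the filter through the knockout alone and 3 through wild-type alone, and of the other 19 genes 10 rose and 4 fell. Among those 19, 4 rose and 1 fell by more than 2-fold, beside 3.65% and 2.31% of all genes so restricted. The median of 0.53 was 0.19 without knockout replicate 2, 0.11 with a mean count of at least 20 and 1.18 without a filter. Tbx18, a T-box factor of the heart and somites, had 0.66 and 0.39 CPM in wild-type and 8.29 and 6.19 CPM in the knockout. Hand1 had 1.06 and 0.26 CPM in wild-type and 6.22 and 3.54 CPM in the knockout. Hnf4a, a liver and gut nuclear receptor, went the other way, from 19.8 and 16.7 CPM to 0.52 and 3.54 CPM (log2 fold change -3.07). Runx1, the factor of blood formation, had 3.32 and 5.12 CPM in wild-type and 1.04 and 0.88 CPM in the knockout, a call that DESeq2 did not make. With T, these were the 3 factors lowered most.

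Trophoblast markers were raised more than lowered, 10 and 4 of 17 tested (58.8% and 23.5%, against 31.5% and 33.7% over all genes), with a median of 1.34. Of the 17, 3 passed the filter through the knockout alone, and without them 7 rose and 4 fell with a median of 0.67, the lowest of a range that reached 1.622. Krt18, a keratin of simple epithelia, had 28.4 and 30.1 CPM in wild-type and 113 and 127 CPM in the knockout (log2 fold change 2.04). Krt7 had 0.80 and 0.53 CPM in wild-type and 4.66 and 8.85 CPM in the knockout, and Krt19 had 4.25 and 3.29 CPM and 13.99 and 23.4 CPM. Gata3, chosen after its values were seen, had 11.8 and 12.9 CPM in wild-type and 44.6 and 52.6 CPM in the knockout. Cdx2, the factor that specifies trophectoderm, was lowered, from 66.2 and 72.7 CPM to 32.1 and 36.7 CPM (-1.01), and so was Ascl2, from 23.8 and 25.5 CPM to 6.73 and 6.63 CPM. Keratins and Gata3 thus moved against Cdx2 and Ascl2, and over the 10 defining trophoblast markers the summed level was 144 and 155 CPM in wild-type and 127 and 144 CPM in the knockout.

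Primitive endoderm markers gave 6 raised (37.5%) and 8 lowered (50.0%) of 16 tested, beside 31.5% and 33.7% over all genes. The median of -0.33 was -0.69 without knockout replicate 2, -0.497 without knockout replicate 1 and 0.72 without a filter. Without 3 genes that passed through the knockout alone and 1 through wild-type alone, 3 rose and 7 fell. Dab2, an endocytic adaptor, had no count in wild-type and 9.32 and 11.1 CPM in the knockout, at least 51.4-fold higher, and Col4a2 rose as given above. Srgn, a proteoglycan core protein, had 13.7 and 11.8 CPM in wild-type and 4.66 and 4.42 CPM in the knockout. The 10 defining markers of primitive endoderm summed to 78.9 and 72.1 CPM in wild-type and 77.2 and 90.7 CPM in the knockout. For fibroblasts, a contaminating cell of many embryonic stem cell cultures, 3 of 10 markers were tested, none rose, and the sums were 45.2 and 42.1 CPM in wild-type and 26.9 and 26.1 CPM in the knockout. In bulk RNA a change in the share of cells of 1 kind and a change in RNA per cell cannot be told apart.

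Pluripotency genes were expressed in both genotypes. Of 32 naive pluripotency genes all were tested, 22 rose (68.8%) and 5 fell (15.6%), against 31.5% and 33.7% over all genes. Their median of 0.36 came to 0.02 with offsets by reads per exonic base and ranged from -0.08 to 0.41 over the settings. Pou5f1, or OCT4, the central pluripotency factor, had 248 and 254 CPM in wild-type and 695 and 624 CPM in the knockout (log2 fold change 1.39, and 0.52 with those offsets). Dppa5a, a marker of the naive state, had 120.5 and 119.6 CPM in wild-type and 380 and 324 CPM in the knockout. Klf2, a naive-state factor, was lowered from 32.8 and 37.9 CPM to 18.1 and 15.5 CPM (-1.08), and Nr5a2, a nuclear receptor that binds the Pou5f1 gene, from 28.2 and 25.4 CPM to 15.0 and 13.7 CPM (-0.90). The summed level of the 10 defining stem cell markers was 2352 and 2370 CPM in wild-type and 4326 and 4086 CPM in the knockout.

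Genes of primed pluripotency, the state that follows the naive one, moved in both directions. Of 16 tested 8 rose (50.0%) and 5 fell (31.2%), beside 31.5% and 33.7% over all genes. The median of 0.37 was -0.14 without knockout replicate 1, 0.70 without a filter, 0.67 in the fit of 14 libraries and 0.05 without 1 gene that passed the filter through the knockout alone. Otx2, a homeobox factor that drives the exit towards the primed state, had 3.99 and 4.86 CPM in wild-type and 26.4 and 31.0 CPM in the knockout (log2 fold change 2.70; adjusted p = 8.54e-26). Sall2, a zinc finger factor, had 0.40 and 0.26 CPM in wild-type and 6.22 and 5.75 CPM in the knockout. Lef1, a DNA-binding effector of Wnt signalling, was lowered from 62.6 and 61.8 CPM to 15.5 and 17.7 CPM (-1.90). Dnmt3b, a de novo DNA methyltransferase that is higher in primed cells, had 139 and 146 CPM in wild-type and 352 and 350 CPM in the knockout (1.30).

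The two-cell-like state, a rare state of stem cells that resembles the early embryo and expresses Zscan4 and Dux, was lowered as a group. Of 15 tested genes 13 fell and 1 rose, against 33.7% lowered and 31.5% raised over all genes. By more than 2-fold 10 fell, against 3.53% over all genes. Of the 15, 8 passed the filter through wild-type alone and had to be lower in the knockout. Of the other 7 genes 5 fell, 4 of them by more than 2-fold, with a median of -1.53. Over all 15 the median was -2.73, and -2.46 with the 2 genes that had no knockout count set at their floor. Zscan4e had 4.39 and 4.21 CPM in wild-type and no count in the knockout, at least 6.00-fold lower. Arg2, an arginase, had 4.39 and 4.99 CPM in wild-type and 0.52 and 0.44 CPM in the knockout, or 10.2% of wild-type with an interval from 1.21% to 38.1%. Among members chosen after their values were seen, Zscan4d had 41.1 and 41.7 CPM in wild-type and 5.70 and 4.87 CPM in the knockout, and Dux, which codes for the factor that activates the state, had 10.5 and 11.96 CPM and 1.04 and 2.21 CPM. The Zscan4 genes are near-identical copies, so the split of reads among them is uncertain. The 1 gene that rose was Eif1a, a translation factor, whose log2 fold change of 0.67 was -0.11 with offsets by reads per exonic base.

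Germline genes gave 3 raised (11.5%) and 11 lowered (42.3%) of 26 tested, against 31.5% and 33.7% over all genes. The median of -0.43 came to -0.17 with offsets by reads per exonic base and -0.097 with loess offsets. Stk31, a testis kinase, had 73.4 and 70.6 CPM in wild-type and 231 and 250 CPM in the knockout (log2 fold change 1.74), and Tex101, a germ cell surface protein, had 13.6 and 14.7 CPM and 59.1 and 51.8 CPM. Piwil2, a protein of the piRNA pathway, had 16.4 and 13.1 CPM in wild-type and 2.07 and 3.98 CPM in the knockout (-2.24). Sohlh2, a factor of germ cell differentiation, had 36.7 and 30.2 CPM in wild-type and 10.4 and 12.4 CPM in the knockout. RING1B peaks at Stk31, Tex101 and Piwil2 were called in both knockout samples, in raised and lowered genes alike.

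Wnt pathway genes fell more often than they rose, 19 and 4 of 33 tested (57.6% and 12.1%, against 33.7% and 31.5% over all genes), with a median of -0.62 that stayed between -0.78 and -0.33 over the settings. Among ligands, Wnt6 had 2.39 and 1.05 CPM in wild-type and 7.25 and 7.52 CPM in the knockout. Among secreted antagonists, Sfrp2 had 4.65 and 6.70 CPM in wild-type and 18.1 and 19.5 CPM in the knockout, whereas Dkk3 had 15.8 and 17.7 CPM in wild-type and 3.11 and 2.21 CPM in the knockout (log2 fold change -2.67). Among nuclear factors and targets Lef1 and T fell, as given above. Axin2, the standard target and feedback inhibitor of the pathway, chosen after its values were seen, had 71.1 and 73.2 CPM in wild-type and 43.0 and 40.7 CPM in the knockout. Both genotypes were grown with an inhibitor of GSK3β, the kinase that limits this pathway.

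In Nodal, Activin and BMP signalling 12 genes rose (35.3%) and 11 fell (32.4%) of 34 tested, shares near the 31.5% and 33.7% of all genes. The median of -0.17 changed sign with the scaling. Bambi, a decoy receptor, had 13.6 and 12.9 CPM in wild-type and 53.4 and 46.9 CPM in the knockout (log2 fold change 1.91), and Smad7, an inhibitory SMAD, had 36.3 and 33.9 CPM and 73.6 and 86.3 CPM. Bmp7, a ligand, had 20.3 and 18.5 CPM in wild-type and 8.29 and 5.31 CPM in the knockout. Fst, or follistatin, a secreted binder of activin, had 14.8 and 14.9 CPM in wild-type and 4.66 and 6.19 CPM in the knockout (-1.43). Inhibitors of these pathways thus stood among both the raised and the lowered genes. In the list of FGF, ERK and MAPK response genes 8 rose (33.3%) and 6 fell (25%) of 24, beside 31.5% and 33.7% over all genes, with a median of 0.02 that also changed sign. Spry4, a feedback inhibitor of receptor tyrosine kinases, had 92.9 and 89.6 CPM in wild-type and 33.7 and 47.3 CPM in the knockout.

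Among the Polycomb genes themselves, the canonical PRC1 subunit Cbx8 rose from 9.97 and 11.8 CPM to 39.9 and 38.5 CPM (log2 fold change 1.84 ± 0.18; adjusted p = 2.82e-21). Cbx2 rose from 32.4 and 32.7 CPM to 65.3 and 66.3 CPM (1.02). Cbx8 carried all 3 marks in wild-type cells. Of 19 tested PRC1 core and canonical subunits 6 rose (31.6%) and 3 fell (15.8%), Pcgf1 among the latter, beside 31.5% and 33.7% over all genes. Ring1, which codes for RING1A, had 6.11 and 7.89 CPM in wild-type and 10.9 and 8.40 CPM in the knockout (adjusted p = 0.168). Pcgf6, a subunit of another variant complex, was lowered from 33.7 and 32.1 CPM to 26.9 and 22.1 CPM (-0.43), a call lost without wild-type replicate 1 (-0.41), without knockout replicate 2 (-0.26), with DESeq2 and with the offsets.

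Of 20 partners of variant PRC1, 11 rose (55.0%) and 5 fell (25%), and their median of 0.34 came to 0.18 without knockout replicate 2, 0.11 with offsets by reads per exonic base and 0.00084 with loess offsets. Mga, a DNA-binding partner of PCGF6, had 211 and 202 CPM in wild-type and 95.8 and 101 CPM in the knockout (log2 fold change -1.06), and E2f6, another partner of the same complex, had 11.96 and 12.8 CPM and 7.25 and 4.87 CPM (-1.05), a call lost without knockout replicate 2 (-0.74) and with DESeq2. Of 11 tested PRC2 subunits 6 rose (54.5%) and 1 fell (9.09%), with a median of 0.15 that was -0.035 with loess offsets. The shares over all genes were 31.5% and 33.7%. Ezh2, the main methyltransferase of PRC2, had 77.1 and 75.3 CPM in wild-type and 115 and 129 CPM in the knockout (0.68), and Ezh1, its paralogue, had 59.7 and 65.3 CPM and 38.9 and 42.9 CPM (-0.61). Suz12 had 107 and 110 CPM in wild-type and 117 and 118 CPM in the knockout, which did not pass the test (adjusted p = 0.207).

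Genes for ribosomal proteins, oxidative phosphorylation and glycolysis were mostly raised, with medians that shrank to different degrees under offsets by reads per exonic base. Of 77 tested genes for cytosolic ribosomal proteins 74 rose, 70 of them by more than 2-fold, and none fell, against 31.5% raised and 4.15% raised by more than 2-fold over all genes. Their median of 1.37 was 0.64 with offsets by reads per exonic base, and 73 remained raised in that fit. All 67 genes of oxidative phosphorylation rose, with a median of 0.95, which came to 0.22 with 40 raised and 8 lowered under the offsets. Glycolysis gave 20 raised (60.6%) and 7 lowered (21.2%) of 33, and its median of 0.43 came to 0.04. In the tenth of genes with the most reads per exonic base lay 60 of the ribosomal and 52 of the oxidative phosphorylation genes. Many ribosomal protein genes have processed pseudogenes, so their counts are uncertain.

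**Figure D5:**
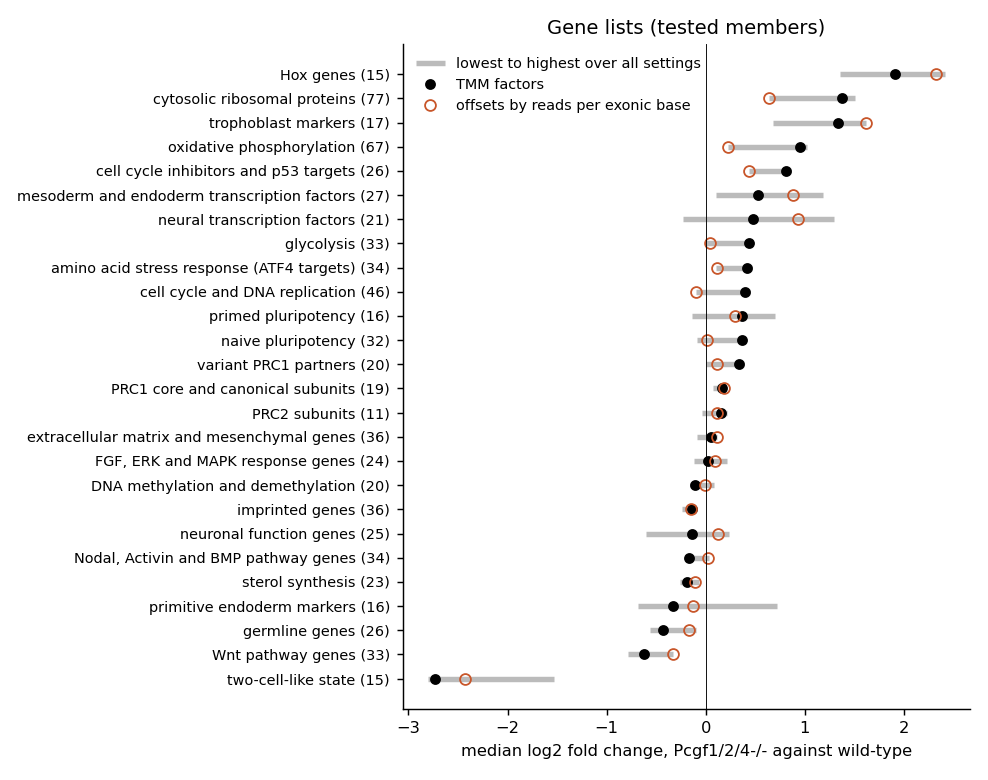
Median log2 fold change of the tested members of each list other than the Y-linked genes, Pcgf1/2/4-/- against wild-type, with the number tested in brackets. Black points use TMM factors, open orange points use offsets by reads per exonic base, and grey bars span all settings tried, over the members tested in each. Hox genes, trophoblast markers, the two-cell-like state and Wnt genes stay on 1 side of 0, while the lists of cell cycle, naive and primed pluripotency, primitive endoderm and neural factors reach across it.

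Cell cycle inhibitors and targets of p53 rose in 18 (69.2%) and fell in 2 (7.69%) of 26 tested, against 31.5% and 33.7% over all genes, with a median of 0.81, and 0.44 with the offsets. Pmaip1, or NOXA, a pro-apoptotic BH3 protein, had 68.8 and 73.5 CPM in wild-type and 239 and 247 CPM in the knockout (log2 fold change 1.77). Trp53inp1, a stress protein induced by p53, had 103 and 105 CPM in wild-type and 333 and 293 CPM in the knockout. Phlda3, an inhibitor of AKT, had 13.6 and 14.3 CPM in wild-type and 40.9 and 40.7 CPM in the knockout. Ccnd1, which codes for cyclin D1 of the G1 phase, was lowered from 218 and 227 CPM to 26.4 and 24.3 CPM (-3.14 ± 0.10; adjusted p = 1.11e-93). Ccnd1 carried a RING1B peak in wild-type and in both knockout samples. Of 46 cell cycle genes 28 rose (60.9%) and 10 fell (21.7%), with a median of 0.40 that came to -0.10 with the offsets.

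The triple knockout was also set beside the Pcgf1-/- and Pcgf2/4-/- lines, in the fit of all 14 RNA-seq libraries, in which the 3 knockouts share the wild-type libraries. Adh1 differed from wild-type by -1.27 on the log2 scale in Pcgf1-/- (adjusted p = 0.343), by 2.52 in Pcgf2/4-/- and by 6.15 in the triple knockout, which lay above Pcgf2/4-/- by 3.63 (adjusted p = 2.43e-06). Lbx2 differed by 4.07 in Pcgf1-/- and by 3.90 in the triple knockout, and the difference of -0.18 between them did not pass (adjusted p = 0.555). Hoxd9 differed by -0.32 in Pcgf1-/- and 0.75 in Pcgf2/4-/-, neither past the threshold, and by 4.93 in the triple knockout, above both (adjusted p = 1.49e-05 and 6.84e-05). Hoxa10 was above wild-type by 2.497 in Pcgf1-/-, 2.71 in Pcgf2/4-/- and 3.51 in the triple knockout, and lay 1.01 and 0.80 above the former lines (adjusted p = 0.00175 and 0.0113). Hoxa9 was higher by 3.08, 4.13 and 3.72, and the triple knockout did not pass against either line. Hoxd9 was thus higher in the triple knockout than in either other line, whereas Hoxa9 was raised in all 3 knockouts.

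Lowered genes were compared in the same way. P2rx2 differed by 0.01 in Pcgf1-/- and -4.72 in Pcgf2/4-/-, and the triple knockout differed from the latter by 0.07 (adjusted p = 0.963). Ablim1 differed by 0.09 in Pcgf1-/-, 0.84 in Pcgf2/4-/- and -3.29 in the triple knockout, which lay below both (adjusted p = 2.75e-08 and 6.49e-09). Ccnd1 differed by -0.60, -1.21 and -3.20, and Lef1 differed by -0.27, 0.06 and -1.96, with the triple knockout below both lines in each (largest adjusted p = 1.48e-06). Cbx8 differed by 0.41 in Pcgf1-/- and was raised by 1.497 in Pcgf2/4-/- and 1.78 in the triple knockout, and the last 2 did not pass against each other (adjusted p = 0.334).

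The authors' deposited table of this comparison listed 19293 genes, of which it called 343 upregulated and 385 downregulated, each with an absolute log2 fold change of at least 2. All 155 of its upregulated genes that passed the filter here were raised here as well, and all 319 of its downregulated genes that passed were lowered. Both sets of calls rest on the same libraries, so this overlap had to be high and is no independent evidence. All 3 marks lay at 142 of the 343 genes that the authors called upregulated and at 38 of the 385 called downregulated. Among all 21861 genes with a matched start, tested or not, 2312 carried all 3 marks. The upregulated share lay above that of all matched genes, and the downregulated share lay near it. Only 155 of the 343 passed the filter here, and 319 of the 385, so these counts include genes too low to test.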

How the data were processed

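RNA was read from poly(A) libraries of 4 samples, and 14 ChIP-seq peak lists gave promoter marks. Per the submitters' processing notes, the authors used bcl2fastq 2, TopHat2 2.1.1, Bowtie 1.2.2, Picard 1.62, HTSeq 0.7.2, DESeq2 3.7 and MACS2 2.1.1 with build mm9. No source used here gives the annotation, the strand setting or the treatment of duplicates. Adh1, Arhgap9, Col4a2, Mapk8ip1 and Prom1, among others, overlap a gene on the other strand. Counts of such genes are uncertain if reads were counted without regard to strand. The deposited gene table holds raw counts per gene, per the file headers. The authors' deposited comparison table holds a log2 fold change, a p-value, a test score and a mean signal per gene. Each deposited peak holds a pileup signal, a fold enrichment, a −log10 p and q and a score, per the file headers, and peaks were called in each sample separately.

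Counts were fitted with edgeR 4.0.16 in R 4.3.3: TMM factors, the filterByExpr filter (minimum count 10), the quasi-likelihood test and Benjamini-Hochberg adjustment at 0.05 over all 12704 genes tested. A second test asked for a change of more than 2-fold (glmTreat). Adjusted p-values in the report are from these fits, and those comparing 3 knockout lines are from 1 fit of all 14 libraries. The fits were first tested on simulated counts. Exact 95% intervals and floors of 3 counts cover counting error only. Among 2 libraries against 2 an exact permutation test cannot pass the threshold. Promoter marks were joined with GENCODE M1 on NCBIM37 with Python 3.11.15, pandas 2.3.3 and scipy 1.17.1, and 1516 of 23377 genes had no matched start. Alternatives covered normalization (RLE factors, DESeq2 1.42.0, loess offsets, offsets by reads per exonic base), filters, depth, the replicate block, each library left out and, added after the data were seen, the wild-type pair as 1 library and a restriction to genes that reached the filter's cutoff in both genotypes.

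Genes named are the targeted genes, the 12 raised and 12 lowered most with a mean log2 CPM of at least 2 and knockout libraries beyond both wild-type libraries, the 8 raised and 4 lowered most with all 3 marks, up to 3 raised and 3 lowered most per list, and Polycomb subunits. Some genes that this rule names are not reported here. The members and lists were chosen with earlier results of these data known, so the lists are described by counts and medians.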

Additional observations from a re-analysis of the deposited data

How the results depend on the processing

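The number of changed genes stayed between 5717 and 8278 under every alternative except the test against 2-fold, which called 975, and the share raised stayed between 38.9% and 57.4%. DESeq2 called 5836 genes and wild-type counts thinned to knockout depth gave 7160. Leaving out 1 library gave 6867 to 7329 changed genes, 48.8% to 52.1% of them raised. The replicate block gave 8038 changed genes, 48.4% of them raised, and changed no call of a gene named in the text. Deviations of libraries with the same number correlated at -0.018. The wild-type deviations lay near counting noise, so this value cannot tell whether the numbers pair the samples.

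The median log2 fold change of genes with RING1B, SUZ12 and H3K27me3 was 0.13 with RLE factors, 0.197 without a filter, -0.00971 with a mean count of at least 20, 0.37 with loess offsets, 0.35 with offsets by reads per exonic base, 0.1413 with the wild-type pair as 1 library, 0.1416 with DESeq2, 0.0496 in the fit of 14 libraries 0.15 with peaks of −log10 q of at least 10 and 0.1147 over genes that reached the filter's cutoff in both genotypes. Leaving out 1 library gave -0.012 to 0.1352. In each of these settings it lay above the median of all genes, by 0.044 to 0.38 where the difference was computed. Over genes that reached the cutoff in both genotypes the medians were 0.1147 and -0.031.

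Of 102 genes named in the text, 90 kept their direction and side of the threshold in every setting other than the test against 2-fold. Signs changed for Eif1a (-0.1131 with loess and -0.1069 with density offsets), Hoxa2 (0.018 with loess offsets) and Hoxc4 (0.22 and 0.26). Leaving out 1 library gave -0.0402 to 0.46 for Bmi1, -1.89 to 0.29 for Hoxc13 and -0.15 to 0.042 for Hoxc4. The cause was not tested for any of them. Medians of 16 of 27 lists kept their sign in every setting.

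Knockout libraries held about 0.33 of the wild-type depth, and 1429 of 2312 genes with all 3 marks had too few counts to be tested, so a small rise of a silent gene was not detectable at this depth.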

Other observations

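Imprinted genes, expressed from 1 parental copy, moved in both directions: 13 rose (36.1%) and 15 fell (41.7%) of 36 tested, shares near the 31.5% and 33.7% of all tested genes, with a median log2 fold change of -0.14. Igf2, a fetal growth factor, had 0.53 and 1.05 CPM in wild-type and 5.70 and 8.40 CPM in the knockout. Peg10, a retrotransposon-derived gene of the placenta, had 34.8 and 36.8 CPM in wild-type and 126 and 148 CPM in the knockout. Slc22a18, a transporter, had 16.4 and 16.2 CPM in wild-type and 2.07 and 5.31 CPM in the knockout.

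Among 25 tested genes of neuronal function 6 rose (24%) and 10 fell (40.0%), beside 31.5% and 33.7% of all tested genes, and the median of -0.14 lay between -0.61 and 0.23 over the settings. Nefm, a neurofilament chain whose promoter carried all 3 marks, had 18.2 and 18.7 CPM in wild-type and 46.6 and 48.6 CPM in the knockout. Chga, a protein of secretory granules without the marks, had 26.6 and 22.0 CPM in wild-type and 0.52 and 4.42 CPM in the knockout. Of 20 genes of DNA methylation and demethylation 7 rose (35%) and 8 fell (40.0%), and Apobec2, a cytidine deaminase relative, had 27.6 and 29.2 CPM in wild-type and 6.73 and 5.31 CPM in the knockout. In sterol synthesis 6 rose (26.1%) and 9 fell (39.1%) of 23 tested. These shares too lay near those of all genes.

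Among chromosomes the median log2 fold change was 0.14 over 575 tested genes of chromosome 3, -0.20 over 456 of chromosome 13 and -0.24 over 427 of chromosome X, beside -0.06 over all tested genes.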
